A study of Mus musculus with 24 samples.

Results

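Cytosolic ribosomal protein genes encode the protein parts of the ribosome outside mitochondria. They were taken as the genes named Rpl or Rps with a number, together with Rplp0, Rplp1, Rplp2 and Rpsa. Pseudogene names ending in -ps and the Rps6k kinases were left out. This gave 89 of the 49982 genes listed in any of 3 count tables, with 85 of them in all 3 tables. The annotation lists 6 members, Rpl32l, Rpl6l, Rps12l1, Rps3a2, Rps3a3 and Rps4l, as processed pseudogenes. The samples were RNA-seq libraries of p27K high cells, which are quiescent cancer cells, and of p27K negative cells, which are proliferating cancer cells, sorted from the same tumours. The tumours grew from 3 mouse mammary carcinoma lines, 4T07, D2A1 and EMT6, each carrying mCherry and the mVenus-p27k reporter. For every tumour, 250000 cells were put into the mammary fat pad of a Balb/cJ mouse, and the tumour was taken at day 14. There were 4 tumours per line and thus 4 libraries of each gate per line, 24 in all. The age of the mice was not given in the sources used here. Each line was sequenced in its own run and has its own count table, so line, run and table cannot be told apart.

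The ribosome has a large subunit, built with Rpl proteins, and a small subunit, built with Rps proteins. Their mRNAs carry a terminal oligopyrimidine (TOP) start, a run of C and T bases through which mTORC1 and LARP1 control their translation, and they are made in step in growing cells. A few have paralogs, such as Rpl22l1 for Rpl22, Rps27l for Rps27 and Rpl7l1 for Rpl7. Rps27l is known as a p53 target, and Rpl7l1 as a factor of large-subunit assembly.

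The start sites of the paralogs and of key members are shown first, because the values below set paralogs against their partners. Each line gives 25 bases before and 25 bases from the annotated start, on the gene's strand, from RefSeq on build GRCm38.p6, with every match on that strand in capitals to the motif CTTTC, to the motif CTTCC or to the motif CTCTT. Matches to the third motif can overlap with those to the others.
Rps27l, chr9:66946061-66946110, plus strand: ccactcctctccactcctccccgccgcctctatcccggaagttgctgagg
Rps27, chr3:90213624-90213673, minus strand: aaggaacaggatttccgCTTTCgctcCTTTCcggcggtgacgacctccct
Rpl7l1, chr17:46782632-46782681, minus strand: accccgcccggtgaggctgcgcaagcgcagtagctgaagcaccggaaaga
Rpl22l1, chr3:28805483-28805532, plus strand: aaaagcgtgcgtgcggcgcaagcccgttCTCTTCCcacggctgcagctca
Rpl22, chr4:152325701-152325750, plus strand: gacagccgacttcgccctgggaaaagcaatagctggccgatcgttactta
Rpl39, chrX:37085198-37085247, minus strand: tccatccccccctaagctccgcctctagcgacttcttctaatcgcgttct
Rpl5, chr5:107900503-107900552, plus strand: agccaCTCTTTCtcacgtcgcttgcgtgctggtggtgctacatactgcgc
Rps6, chr4:86857343-86857392, minus strand: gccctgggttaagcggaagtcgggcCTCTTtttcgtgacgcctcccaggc

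Of the 89 members, 64 matched the promoter table, and 35 of these, 54.7%, had at least 1 of the 3 motifs in this window on the sense strand. Over all 27025 genes with a promoter the share was 23.7%. On the antisense strand the same letters were found in 34.4% of the members and 24.5% of all genes. The motif CCGGAAG, searched on both strands from 250 bases before to 50 bases after the start, was in 40.6% of the members and 9.93% of all genes. Its reverse complement overlaps CTTCC.

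The coding sequences of Rps27l and Rps27 are close enough to compare base by base. The first 90 coding bases follow, from GENCODE vM21 on GRCm38, with the 24 positions at which these genes differ in capitals.
Rps27l: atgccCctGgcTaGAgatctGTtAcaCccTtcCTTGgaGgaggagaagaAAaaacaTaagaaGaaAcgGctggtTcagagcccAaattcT
Rps27: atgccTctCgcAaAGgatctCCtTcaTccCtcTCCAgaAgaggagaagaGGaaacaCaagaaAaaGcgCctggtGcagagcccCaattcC
Over the aligned coding bases Rps27l was 76.2% identical to Rps27, with a longest identical run of 11 bases. Rpl7l1 was 64.9% identical to Rpl7 with a longest run of 10 bases, and Rpl22l1 was 72.7% identical to Rpl22 with a longest run of 26 bases.

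Library totals ranged over 27887221 to 45460880 counts in 4T07, 1335433 to 20174767 in D2A1 and 13769682 to 20142013 in EMT6. The D2A1 p27K negative libraries of tumours 1 to 3 were the shallow ones. Mki67, a proliferation marker, averaged 19.8 ± 7.27 CPM, the count scaled to library size, in p27K high and 1719 ± 238 CPM in p27K negative 4T07 cells (SD, n = 4 each), and it fell in D2A1 and EMT6 as well. Counts of Cdkn1b, which encodes p27 itself, rose. The change was 0.89 ± 0.11 for 4T07 tumours, 0.46 ± 0.11 for D2A1 tumours and 0.54 ± 0.04 for EMT6 tumours (edgeR log2 fold change ± SE). The cells carried the mVenus-p27k reporter, and whether its transcripts were counted as Cdkn1b was not tested. A pair of libraries stood apart. The p27K high library of 4T07 tumour 2 had 13500 genes detected, against 15094 to 15370 in the others of its gate. The p27K high library of D2A1 tumour 3 had 5.33% of its counts in ribosomal protein genes, against 2.64% to 3.26% in the others of its gate. It was also the shallowest of its gate, with 6727594 counts against 16345251 to 20174767. It had 18255 genes detected, against 20881 to 21278. Many of the member results that turn on either library are also given without that tumour.

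The members took a larger share of the counts in p27K high cells of 4T07 and EMT6. In 4T07 the share was 3.35 ± 0.205% in p27K high and 2.83 ± 0.179% in p27K negative libraries (SD, n = 4 each). In EMT6 it was 6.61 ± 0.406% in p27K high and 5.7 ± 0.308% in p27K negative libraries. There the lowest p27K high library, at 6.10%, lay just below the highest p27K negative one, at 6.11%. In D2A1 the share was 3.58 ± 1.2% in p27K high and 3.28 ± 0.176% in p27K negative libraries, and the gates overlapped there too.

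**Figure D1:**
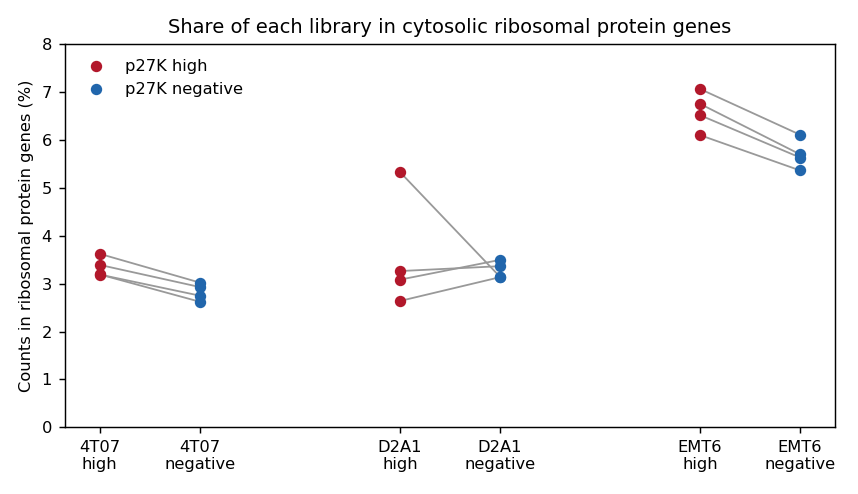
Share of each library's counts in cytosolic ribosomal protein genes, in percent, for p27K high (red, left) and p27K negative (blue, right) libraries of each line, with grey lines joining the gates of a tumour. The D2A1 p27K high library of tumour 3 is at 5.33%, and the highest EMT6 p27K high library is at 7.06%.

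In 4T07, ribosomal protein genes were higher in p27K high cells across both subunits. Of 80 members tested, 43 rose and 0 fell, also 0 at an unadjusted p under 0.05 and 0 by DESeq2 (adjusted p under 0.05, edgeR quasi-likelihood test with Benjamini-Hochberg adjustment over all genes). Among all 12849 genes tested, 22.1% rose and 23.6% fell. The median change of the members was 0.30 on the log2 scale, against 0.00 for all genes. Of 42 core large-subunit members 21 rose, and of 31 small-subunit members 20 rose. DESeq2 called 49 higher. The largest change was that of Rpl39, a small protein at the exit tunnel of the large subunit. It had 188, 571, 216 and 203 CPM in p27K high cells of tumours 1 to 4, against 95.8, 106, 114 and 93.9 CPM in p27K negative cells. All 4 p27K high values lay above all 4 p27K negative ones, and tumour 2 lay far above the others. The change was 1.35 ± 0.24 (adjusted p = 0.0038), and 1.00 without tumour 2 (adjusted p = 3.54e-07).

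Rpl23a, a large-subunit protein near the tunnel exit, had 405, 629, 394 and 359 CPM in p27K high 4T07 cells, against 261, 236, 255 and 226 CPM in p27K negative cells. The gates did not overlap, and the change was 0.83 ± 0.14 (adjusted p = 0.00288). Rpl5, which with Rpl11 and the 5S rRNA forms the particle that binds MDM2, had 644, 788, 646 and 581 CPM in p27K high 4T07 cells, against 442, 416, 431 and 401 CPM in p27K negative cells. Its gates did not overlap either, with a change of 0.65 ± 0.09 (adjusted p = 0.00119). Rpl11 itself changed by 0.09 ± 0.07 and did not pass the test (adjusted p = 0.32). Rpl38, a large-subunit protein known for its role in translating Hox mRNAs in mouse embryos, rose by 0.79 ± 0.14 (adjusted p = 0.00338), with 148 ± 25.8 CPM in p27K high and 85.2 ± 11.1 CPM in p27K negative cells. Rps6, the substrate of the S6 kinases, rose by 0.39 ± 0.12 (adjusted p = 0.0361), and by 0.23 without tumour 2 (adjusted p = 0.00557). Its call was lost without tumour 1, 3 or 4 (adjusted p = 0.0527 to 0.11). Without tumour 2 the changes of Rpl23a, Rpl5 and Rpl38 were 0.64, 0.56 and 0.60, and each still passed the edgeR test.

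Of the stalk proteins in 4T07, Rplp1 rose by 0.29 ± 0.09 (adjusted p = 0.0282), a call lost without tumour 1, 3 or 4 (adjusted p = 0.063 to 0.0905). Rplp0, the stalk base, had 749, 337, 764 and 632 CPM in p27K high 4T07 cells, against 679.7, 505, 633 and 506 CPM in p27K negative cells. It was lower in tumour 2 and higher in the others, and the change of 0.04 ± 0.15 did not pass the test (adjusted p = 0.843). Without tumour 2 all 3 stalk genes rose: Rplp0 by 0.25 (adjusted p = 0.00397), Rplp1 by 0.21 (adjusted p = 0.00682) and Rplp2 by 0.28 (adjusted p = 0.00143). Rpsa, the laminin receptor homologue of the small subunit, changed by -0.04 ± 0.14 (adjusted p = 0.848), and by 0.16 without tumour 2 (adjusted p = 0.0361). Rps27a, which is made as a fusion with ubiquitin, rose by 0.23 ± 0.08 (adjusted p = 0.0423), a call lost without tumour 1, 3 or 4 (adjusted p = 0.0963 to 0.209). The lowest changes, of Rpl30 at -0.996 ± 0.589 and Rpl34 at -0.71 ± 0.49, did not pass the test, and these genes had only 130 and 340 counts over the 8 4T07 libraries. Rpl30, Rpl34 and Rps27 were below 5 CPM in the 4T07 table and above 50 CPM in the other tables, and Rpl26 had 0 counts there, so 4T07 values that involve these members rest on few counts.

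Tumour 2 of 4T07 spread the member changes widely. Its interquartile range was 0.77 log2 units, against 0.27, 0.27 and 0.33 in tumours 1, 3 and 4, while its median was 0.15, against 0.35, 0.33 and 0.28. Without tumour 2, 64 members rose and 1 fell, against 30.2% and 29.7% of all genes in that fit. All 43 members that rose with 4 tumours were among the 64. Without tumour 1, 3 or 4, 19, 24 and 28 members rose. Leukocyte and macrophage marker genes were lower in p27K high 4T07 cells: all 10 fell, and their summed level was 75.4 to 99.4 CPM in p27K high against 383 to 935 CPM in p27K negative libraries. Of 6 fibroblast markers tested in 4T07, 2 rose and 1 fell. The sum over 7 fibroblast markers was 1489 to 2267 CPM in p27K high and 598 to 742 CPM in p27K negative libraries. All 3 tested endothelial markers fell, and of 5 tested neutrophil markers 3 fell and 0 rose. Of 4 tested epithelial markers 2 fell and 0 rose. The part of these markers in the ribosomal protein changes was not tested.

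In EMT6 the changes were smaller and more even. Of 84 members tested, 74 rose and 2 fell, against 24.1% and 25.1% of all 13354 genes tested. The member median was 0.21, against 0.02 for all genes, and the tumour medians ran over 0.19 to 0.26. Of 43 core large-subunit members 39 rose, of 31 small-subunit members 30 rose, and all 3 stalk proteins rose, between 0.18 and 0.20. The call of Rplp0 was lost without the tumour of column 1 (edgeR, adjusted p = 0.0543). Rpl17, a large-subunit protein at the tunnel exit, had 944, 1092, 1103 and 896 CPM in p27K high EMT6 cells, against 705, 803, 851 and 726 CPM in p27K negative cells. The gates did not overlap, and the change was 0.38 ± 0.04 (adjusted p = 5.71e-05). Rpl32l, a sparsely read copy, rose by 0.56 ± 0.17 (adjusted p = 0.0237) on 344 counts in all, a call lost without the tumour of column 1, 2 or 4 (adjusted p = 0.0568 to 0.0933). The 8 members that did not pass the test were Rpl14, Rpl22l1, Rpl27, Rpl29, Rpl6l, Rpl8, Rps2 and Rps3a3, named here after their values were seen. Fibroblast marker genes also moved in EMT6: 6 of 7 rose, with a summed level of 7329 to 9781 CPM in p27K high and 5557 to 7669 CPM in p27K negative libraries. Of 4 tested leukocyte and macrophage markers in EMT6, 2 rose and 0 fell. The sum over 10 such markers was 31.5 to 42.2 CPM in p27K high and 21.9 to 29.6 CPM in p27K negative libraries. Of 2 tested neutrophil markers 1 rose, and of 4 tested epithelial markers 1 fell. The part of these markers in the result was not tested.

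In D2A1 few members passed the test, and the tumours went different ways. Of 84 tested, 1 rose and 2 fell, against 14.9% and 14.7% of all 12845 genes; DESeq2 called 2 higher and 2 lower. Without tumour 1, and likewise without tumour 2, edgeR called 0 members, with 3 at an unadjusted p under 0.05 in each fit. The member medians by tumour were -0.18, 0.00, 0.83 and -0.27, so tumour 3 alone was clearly above 0; in it 82 of 84 members were higher in p27K high cells, against 19, 41 and 6 in tumours 1, 2 and 4. The member that rose was Rps14, a small-subunit protein whose loss is known from a human myelodysplastic syndrome. It had 356, 360.2, 638 and 309.8 CPM in p27K high D2A1 cells, against 247, 278, 257 and 329 CPM in p27K negative cells. The gates overlapped, and the change of 0.52 ± 0.18 (adjusted p = 0.0429) was 0.24 without tumour 3 (adjusted p = 0.0752); the call was also lost without tumour 1 or 2. Rps2, a small-subunit protein at the mRNA entry, had 280.0, 291, 513 and 207 CPM in p27K high D2A1 cells, against 457, 477, 413 and 384 CPM in p27K negative cells. It was lower in 3 of 4 tumours, with a change of -0.51 ± 0.17 (adjusted p = 0.0394), and of -0.78 without tumour 3 (adjusted p = 1.81e-06); the call was lost without tumour 1, 2 or 4 (adjusted p = 0.167 to 0.197). Marker genes of other cell types moved in D2A1 too. Of 7 fibroblast markers 4 fell and 1 rose, with a summed level of 651 to 755 CPM in p27K high and 654 to 828 CPM in p27K negative libraries. Both tested endothelial markers fell, with a sum over 5 markers of 0.306 to 3.63 CPM in p27K high and 8.3 to 25.2 CPM in p27K negative libraries. The 7 tested leukocyte and macrophage markers did not pass the test. Of 2 tested neutrophil markers 1 rose, and of 2 tested epithelial markers 1 fell. Their part in the result was not tested.

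Without D2A1 tumour 3 the calls turned: 0 members rose (2 at an unadjusted p under 0.05) and 25 fell in edgeR, against 17.9% and 19.1% of all genes in that fit. Both members that fell with 4 tumours, Rps2 and Rpl7l1, were among the 25. The changes of the 25 ran over -0.78 to -0.20, and the median of all tested members was -0.14. Rpl4, a large-subunit protein lining the exit tunnel, changed by -0.36 (adjusted p = 0.00118) in that fit, and by -0.17 ± 0.14 with all 4 tumours (adjusted p = 0.413).

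**Figure D2:**
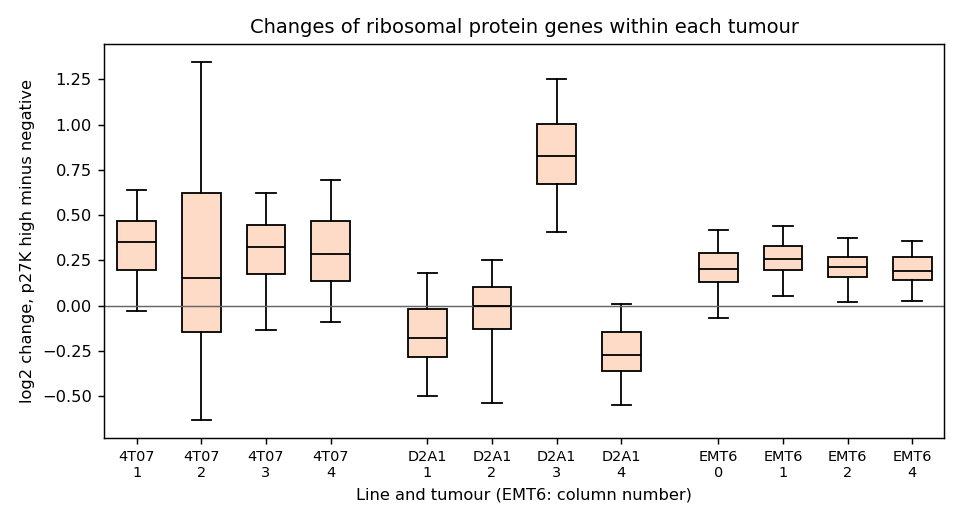
Changes of the tested ribosomal protein genes within each tumour, as log2 of p27K high over p27K negative (boxes: quartiles and median; whiskers: 5th to 95th percentile). The D2A1 tumour 3 box, with median 0.83, lies above those of the other D2A1 tumours, and the 4T07 tumour 2 box is the widest.

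Averaged over the lines, 49 of 81 members rose and 1 fell. Of the 13578 genes tested in the joint fit 28.3% rose, and 52.4% were called in either direction. The member median was 0.23, against 0.03 for all genes. The lowest p among members that rose was that of Rpl23a, at 0.45 ± 0.07 (adjusted p = 5.07e-05). The one that fell was Rpl7l1, at -0.25 ± 0.06 (adjusted p = 0.00152). Leaving out both tumours that stood apart, 61 members rose and 5 fell, against 33.1% and 26.7% of all genes. The 5 were Rpl30, Rpl7l1, Rpl8, Rps2 and Rps27l. For Rpl30, whose 4T07 value rests on few counts, the changes in that fit were -0.56 for 4T07, -0.27 for D2A1 and 0.21 for EMT6.

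The test of the difference between lines called 4 of 81 members, against 24.5% of all genes. These were Rpl22l1 (adjusted p = 0.0144), Rpl23a (adjusted p = 0.0198), Rpl39 (adjusted p = 0.0227) and Rpl5 (adjusted p = 0.0435), each with its largest change in 4T07. Rpl39, for example, had joint log2 changes of 1.38 for 4T07, 0.27 for D2A1 and 0.39 for EMT6. Without 4T07 tumour 1 or 4 the count was 2. Leaving out D2A1 tumour 3 raised the count to 43, against 27.2% of all genes, and leaving out both tumours that stood apart raised it to 65, against 34.7%. With both left out D2A1 had the lowest change of the 3 lines in 64 of the 65. The 81, the 65 and the 64 include Rpl26, which had 0 counts in 4T07 and so has no usable change there.

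The ratios of Rps27l and of Rpl7l1 to their partners fell, and that of Rpl22l1 to Rpl22 did not pass the test. In EMT6 Rps27l had 84.1, 84.7, 94.8 and 81.2 CPM in p27K high cells, against 129, 114, 132 and 102 CPM in p27K negative cells. Every p27K high value was below every p27K negative one, and the gene fell by 0.46 ± 0.06 on the log2 scale (adjusted p = 0.000116). Its partner Rps27, a small-subunit protein, went the other way: it had 620.5, 618, 689 and 588 CPM in p27K high EMT6 cells, against 420.1, 465, 498 and 449 CPM in p27K negative cells. These gates did not overlap either, and Rps27 rose by 0.46 ± 0.04 (adjusted p = 3.16e-05), among the 4 largest changes of the line.

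In D2A1 Rps27l had 75.2, 70.1, 140.4 and 62.8 CPM in p27K high cells, against 95.8, 111, 105 and 102 CPM in p27K negative cells. It was lower in 3 tumours and higher in tumour 3, and the change of -0.34 ± 0.17 did not pass the test (adjusted p = 0.149). Without tumour 3 it was -0.59 (adjusted p = 0.000223). Rps27 in D2A1 changed by 0.47 ± 0.17 (adjusted p = 0.0577), and by 0.19 without tumour 3 (adjusted p = 0.0595). In 4T07 Rps27l changed by 0.07 ± 0.17 (adjusted p = 0.752), and by -0.16 without tumour 2 (adjusted p = 0.044).

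The ratio of Rps27l to Rps27 counts fell in 11 of 12 tumours. The ratio is of counts, not per length. In EMT6 it was 13.6%, 13.7%, 13.8% and 13.8% in p27K high cells, against 30.7%, 24.5%, 26.5% and 22.8% in p27K negative cells. In D2A1 it was 15.1%, 13.1%, 14.1% and 15.0% in p27K high cells, against 22.6%, 25.3%, 26.5% and 25.7% in p27K negative cells. The gates did not overlap in either line, and tumour 3 of D2A1 was like the others in this measure. The mean change over 12 tumours was -0.67 ± 0.34 on the log2 scale (SD; exact two-sided sign-flip test over tumours, p = 0.000977, adjusted over 3 pairs 0.00146). Within a line the smallest exact p that 4 tumours allow rounds to 0.12; the means were -0.28 in 4T07, -0.81 in D2A1 and -0.92 in EMT6. In 4T07 the ratio rests on 39 to 68 counts of Rps27 per library. It was 2628% to 3028% in p27K high and 2567% to 4428% in p27K negative 4T07 libraries, far from the other lines, and whether that table counted Rps27 by another annotation was not tested. Without that line the mean was -0.86 (exact test, adjusted p = 0.0117).

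Rpl7l1 fell in 2 lines. In D2A1 it had 97.6, 100.4, 116 and 87.0 CPM in p27K high cells, against 137, 146, 136 and 127 CPM in p27K negative cells, and the gates did not overlap. The change was -0.45 ± 0.11 (adjusted p = 0.00901), a call lost without tumour 1 or 2 (adjusted p = 0.0638 and 0.0749). In EMT6 it had 96.7, 118, 128 and 122 CPM in p27K high cells, against 134, 144, 143 and 134 CPM in p27K negative cells, also without overlap, and the change was -0.26 ± 0.06 (adjusted p = 0.00641). In 4T07 it changed by -0.14 ± 0.11 (adjusted p = 0.336), and by -0.00912 without tumour 2 (adjusted p = 0.901). Rpl7, the large-subunit partner, rose by 0.57 ± 0.10 in 4T07 (adjusted p = 0.0031) and by 0.20 ± 0.04 in EMT6 (adjusted p = 0.00329), and changed by 0.06 ± 0.14 in D2A1 (adjusted p = 0.765). The ratio of Rpl7l1 to Rpl7 fell in 12 of 12 tumours. Its mean change was -0.56 ± 0.31 (SD, n = 12; exact sign-flip test p = 0.000488, the smallest these tumours can give, adjusted 0.00146). The line means were -0.71 in 4T07, -0.52 in D2A1 and -0.46 in EMT6. Without tumour 2 the 4T07 mean was -0.47, and the 4T07 change of Rpl7 was 0.46.

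Rpl22l1 behaved differently by line. In 4T07 it had 47.3, 24.2, 58.7 and 51.7 CPM in p27K high cells, against 21.9, 23.1, 29.4 and 22.6 CPM in p27K negative cells. In tumours 1, 3 and 4 the p27K high value was well above all p27K negative ones, and in tumour 2 it was among them. The change was 0.85 ± 0.19 (adjusted p = 0.00873), and 1.10 without tumour 2 (adjusted p = 5.98e-07); the call was lost without tumour 1 (adjusted p = 0.0551). Rpl22, the partner, had 517, 788, 563 and 490.2 CPM in p27K high 4T07 cells, against 351, 335, 380.2 and 334 CPM in p27K negative cells, a change of 0.73 ± 0.13 (adjusted p = 0.00331) with no overlap. Without tumour 2 the 4T07 change of Rpl22 was 0.56. In EMT6 Rpl22 rose by 0.24 ± 0.04 (adjusted p = 0.00129), and Rpl22l1 changed by 0.07 ± 0.05 (adjusted p = 0.244). The ratio of Rpl22l1 to Rpl22 did not pass the test over 12 tumours (mean change -0.10 ± 0.51, SD; exact sign-flip p = 0.51, adjusted 0.51). The line means were 0.11 in 4T07, -0.26 in D2A1 and -0.16 in EMT6, so the lines did not share a direction. Without tumour 2 the 4T07 mean was 0.54. The ratio fell in 1 of 4 tumours in 4T07, 3 in D2A1 and 4 in EMT6. It was 54.0% to 73.3% in p27K high and 64.6% to 78.8% in p27K negative EMT6 cells. In 4T07 cells it was 3.07% to 10.5% in p27K high and 6.25% to 7.72% in p27K negative libraries.

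**Figure D3:**
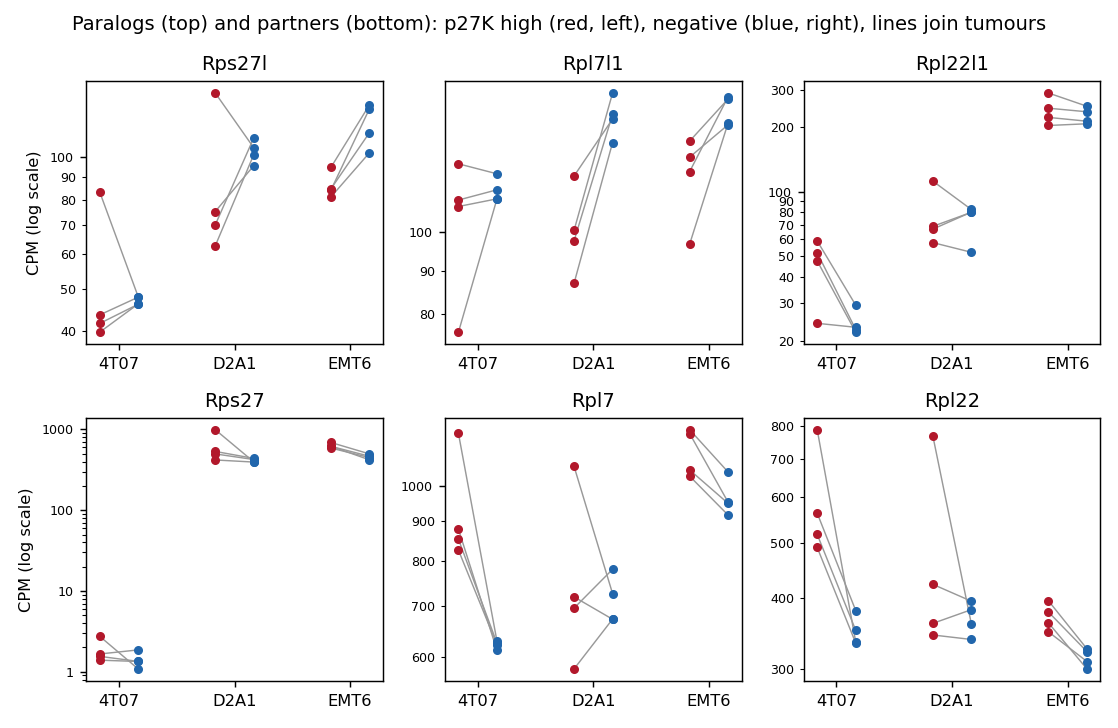
Levels of 3 paralogs (top) and their partners (bottom) in CPM on log axes, for p27K high (red, left) and p27K negative (blue, right) libraries, with lines joining the gates of a tumour. In EMT6 Rps27l and Rpl7l1 run lower in p27K high cells while Rps27 and Rpl7 run higher.

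Other paralogs were barely read. Rpl39l, Rpl3l, Rpl10l and Rps4l had 10, 15, 10 and 16 counts over all 24 libraries and were not tested. Rpl39l, known from mouse testis, had its counts in 2 EMT6 libraries. Their partners followed the other members: Rpl3, a large-subunit core protein, rose by 0.41 ± 0.10 in 4T07 (adjusted p = 0.015) and by 0.21 ± 0.04 in EMT6 (adjusted p = 0.00106), and Rps4x, a small-subunit protein, rose by 0.55 ± 0.14 in 4T07 (adjusted p = 0.0176) and by 0.31 ± 0.04 in EMT6 (adjusted p = 0.000109). Rpl10, which joins the large subunit late in its assembly, rose by 0.30 ± 0.04 in EMT6 (adjusted p = 0.00017) and changed by 0.45 ± 0.20 in 4T07 (adjusted p = 0.0993). Without 4T07 tumour 2 it rose by 0.74 (adjusted p = 3.74e-06). The 4T07 calls of Rpl3 and Rps4x were lost without tumour 1, 3 or 4 (adjusted p = 0.0642 to 0.0952). Without tumour 2 their 4T07 changes were 0.52 and 0.75.

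**Figure D4:**
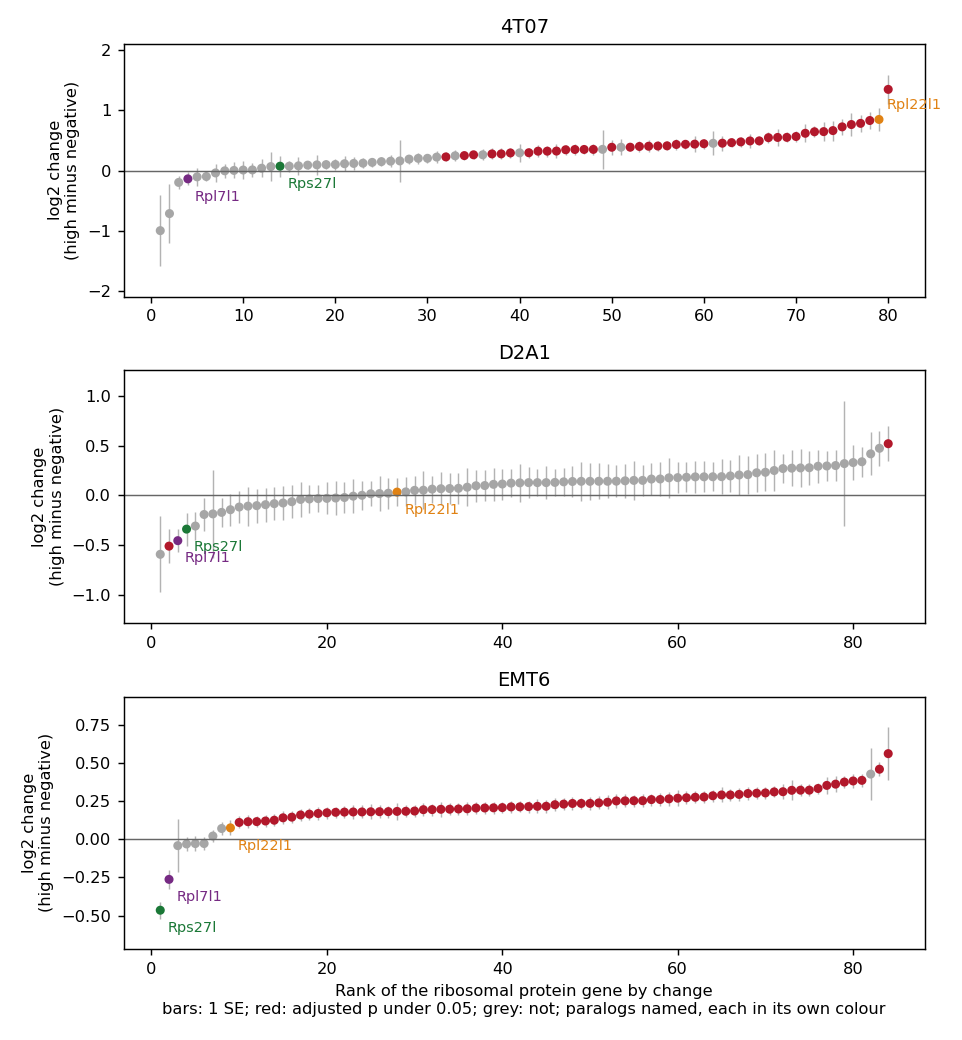
Ribosomal protein genes of each line ranked by log2 change, p27K high minus negative (points: change; bars: 1 SE; red: adjusted p under 0.05; paralogs named, each in its own colour whether or not it passed). Rps27l at -0.46 and Rpl7l1 at -0.26 are the lowest members in EMT6, and Rpl22l1 at 0.85 is among the highest in 4T07.

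Other genes of the pathway were read from chosen lists. For scale, 22.1% of all genes rose and 23.6% fell in 4T07, 14.9% and 14.7% in D2A1, and 24.1% and 25.1% in EMT6. Of 17 mTORC1 and LARP1 regulators, 1 rose and 2 fell in 4T07, 4 and 4 in D2A1, and 5 and 7 in EMT6. Of the chaperones of single ribosomal proteins, 2 of 9 tested rose and 1 fell in 4T07. In D2A1 0 of 8 rose and 3 fell, and in EMT6 1 of 8 rose and 5 fell. Of 18 translation and elongation genes with TOP starts, 9 rose and 1 fell in 4T07, 1 rose and 6 fell in D2A1, and 10 rose and 6 fell in EMT6. Tpt1, a TOP mRNA for a growth-linked protein, passed the test in each line. Its change was 0.97 ± 0.14 for 4T07, 0.57 ± 0.13 for D2A1 and 0.51 ± 0.03 for EMT6. Eef1a1, the elongation factor that brings aminoacyl-tRNA, rose by 0.50 ± 0.08 in 4T07 and 0.34 ± 0.04 in EMT6, and changed by 0.14 ± 0.11 in D2A1 (adjusted p = 0.401). Npm1, a nucleolar chaperone, rose by 0.49 ± 0.17 in 4T07 and fell by 0.62 on the log2 scale in D2A1 and by 0.20 in EMT6. Of 8 snoRNA host genes with TOP starts, 7 rose in 4T07, 0 passed in D2A1 (edgeR, 1 at an unadjusted p under 0.05), and 5 rose and 2 fell in EMT6. Gas5, a host of several snoRNAs, averaged 429 ± 89.97 CPM in p27K high and 237 ± 20.8 CPM in p27K negative 4T07 cells (SD, n = 4 each), a change of 0.84 ± 0.12. Of 5 ribosome hibernation and preservation factors, 2 fell in 4T07 and 2 in D2A1, and 1 rose and 3 fell in EMT6. Among them Ifrd2, which is found on inactive ribosomes in rabbit reticulocytes, averaged 18.7 ± 1.49 CPM in p27K high and 40.5 ± 2.77 CPM in p27K negative 4T07 cells. It fell in every line, and the log2 changes were -1.11 ± 0.09 for 4T07, -1.12 ± 0.15 for D2A1 and -0.90 ± 0.07 for EMT6. Of the genes listed around the 5S particle and MDM2, 2 of 6 tested rose and 2 fell in 4T07. In D2A1 2 of 7 rose and 3 fell, and in EMT6 2 of 7 rose and 4 fell. Of 4 other ribosomal proteins and subunit factors, 2 rose in 4T07, and 3 rose and 1 fell in EMT6.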

How the data were processed

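RNA-seq counts per gene were deposited by the authors as 3 tables, 1 per line, on build mm10 per the submitters' processing notes. No source used here names the aligner or the counter. Those notes name DESeq2. The values are raw counts. From them edgeR 4.0.16 (R 4.3.3) gave, per line, a quasi-likelihood test with TMM scaling, filterByExpr and the tumour as a block, with Benjamini-Hochberg adjustment over all genes tested. CPM uses TMM-scaled library sizes. The SE of a log2 fold change is its absolute value divided by the square root of the quasi-likelihood F. A joint fit of 24 libraries with 12 tumour blocks gave the average and the difference between lines. Paralog ratios used a pseudocount of 0.5 and an exact sign-flip test over tumours; pairs averaging under 10 counts per library were not tested. Scripts were tested on simulated data. DESeq2 1.42.0 was an alternative.

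The gates of a 4T07 or D2A1 tumour are paired by its number in the labels. EMT6 columns carry numbers other than the titles, so they were assigned to gates only, and were paired by column number, since every same-numbered pair's deviations correlated (r of 0.574 to 0.813 over 5000 genes). Depth ranges are in the report; depth limits mainly the shallow D2A1 libraries. P-values set the within-tumour gate change against how much that change varied between tumours. Reads of members and their pseudogene copies cannot always be told apart. Copies with -ps names were counted apart from members and took at most 0.14% of any library. The 4T07 table lists 7 such names, against 280 in each other table, so its share leaves out copies that it does not list. Among the members, 6 are themselves annotated as processed pseudogenes, of which 2 are among the EMT6 members that rose. The members and lists were chosen with earlier results of these data known. Named members were the paralogs and partners, the 4 highest and 4 lowest changes per line, the 4 smallest p per direction of the average, the 6 smallest p of the difference, and 8 chosen for their roles; other pathway genes were limited to 3 per list. Of the members so named, 1 is not reported here. Entries with no gene name or with date names, and totals, were left out.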

Additional observations from a re-analysis of the deposited data

Results flagged for a closer look

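In 22 of 114 groups of 4 tumours, 1 tumour's change lay far from the other 3 by Dixon's test. Chance alone does so in about 1 in 20 independent groups. These groups share the same libraries, and many are of members named for extreme changes, so the count cannot be set against that rate. Values are log2 changes, p27K high minus p27K negative, within 1 tumour. In 4T07, tumour 2 was the far one for 12 named members. It lay above the others for Rpl39 at 2.43, Rpl23a at 1.41, Rpl38 at 1.35, Rpl22 at 1.23, Rpl5 at 0.92 and Rps27l at 0.80. It lay below them for Rpl10 at -0.41, Rpl7l1 at -0.52, Rpl8 at -0.59, Rplp2 at -0.38, Rps14 at -1.02 and the sparsely counted Rpl30 at -4.31. The ratio of Rpl22l1 to Rpl22 in that tumour changed by -1.17. Tumour 3 of 4T07 was the far one for Rpl29 at 0.32 and for Rpl32l at -0.41. In D2A1, tumour 3 lay above the others for Rps27 at 1.32, Rpl39 at 1.23, Rpl22 at 1.09, Rps4x at 0.83, Rpl30 at 0.70, Rps2 at 0.31 and Rpl7l1 at -0.22.

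The change differed between lines, by edgeR's quasi-likelihood test of the difference in the joint fit, for Rpl22l1 (adjusted p = 0.0144), Rpl23a (adjusted p = 0.0198), Rpl39 (adjusted p = 0.0227) and Rpl5 (adjusted p = 0.0435). Line, sequencing run and count table cannot be told apart in these differences. The 4T07 table had 24982 entries, and the D2A1 and EMT6 tables had 49316 each.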

How the results depend on the processing

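Without the tumour as a replicate block, the members called numbered 27 in 4T07 (43 with it), 37 in EMT6 (76 with it) and 1 for the difference between lines (4 with it). Scaling by total counts gave 24 calls and a member median of 0.16 in 4T07, where it moved the median of all genes to -0.14; with TMM the member median was 0.30. With no filter on low counts, 13 members were called in D2A1, 11 of them higher, and 7 for the difference; DESeq2 called 9 for the difference. Leaving out both tumours that stood apart, chosen after seeing the data, gave 65 for the difference and 0.0584 for the change of the ratio of Rpl22l1 to Rpl22 (exact sign-flip test, adjusted p = 0.611), the opposite sign to the -0.10 of all tumours; it was -0.21 without the 4T07 line (exact test, adjusted p = 0.0312). Leaving out 1 tumour at a time, calls ranged over 19 to 65 in 4T07, 0 to 25 in D2A1, 61 to 78 in EMT6, 42 to 61 for the average and 2 to 43 for the difference. Member medians then ranged over 0.29 to 0.31 in 4T07, -0.14 to 0.23 in D2A1 and 0.20 to 0.22 in EMT6. Ratio changes ranged over -0.73 to -0.62 for Rps27l to Rps27, -0.59 to -0.48 for Rpl7l1 to Rpl7 and -0.17 to -0.01 for Rpl22l1 to Rpl22. The difference call of Rpl5 was lost under 14 alternatives (adjusted p = 0.0507 to 0.146, edgeR), that of Rpl22l1 without the block and without 4T07 tumour 1 or 4, and that of Rpl39 without the block. Over 1861 settings of named members, 1669 kept their direction and side of the threshold, 90 lost the threshold, 49 passed it, 53 changed sign where the reported value had not passed the test, and 0 changed sign where it had. The cause of these moves was not tested. Depth limits the shallow D2A1 p27K negative libraries.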
